A study of Mus musculus with 23 samples.

Results

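Lung tumours of mice with the genotype KTL_Cas9 (with Lkb1 flox/flox, R26 LSL-Tomato and H11 LSL-Cas9) were compared with those of KT mice (with R26 LSL-Tomato, without floxed Lkb1 or Cas9). The question is which guide RNA vectors still alter tumour growth where Lkb1 is floxed and taken to be deleted. Deletion of Lkb1 in the tumours was not measured here. Both groups had a mixed BL6/129 strain and carried a Tomato reporter, and tumours grew for 4 months. The members were chosen by genotype, and a mouse had to hold 20 or more inert tumours, which are tumours of vectors with non-targeting or Neo guides only. This left 11 of the 23 labelled mice, 7 KTL_Cas9 and 4 KT. Of 8 labelled KTL_Cas9 mice, replicate 1 was left out with 17 tumours and 0 inert tumours, and of 5 labelled KT mice replicate 4 had no rows and was not analysed here. The genotypes differ in Lkb1 as well as in Cas9, so the effects of both on a raw tumour size cannot be told apart, and every value is set against each mouse's own inert tumours. The sources used here do not give the route of Cre delivery, the virus dose, or the age and sex of the mice.

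LKB1 (gene symbol Stk11) is a kinase and tumour suppressor often lost in lung adenocarcinoma. It switches on AMPK and the AMPK-related kinases, among them the NUAK, MARK and SNRK kinases and the family of salt-inducible kinases (SIK1, SIK2, SIK3), by phosphorylating their activation loop. SIKs in turn phosphorylate CRTC coactivators and class IIa histone deacetylases and hold them in the cytoplasm. In tumours without LKB1 these kinases lack their usual activator. Where deletion is complete, a further effect of a guide against one of them would come on top of LKB1 loss.

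In tumour barcode sequencing (Tuba-seq) each vector carries an 8-base tag that names its guides and a random barcode that marks the descendants of one infected cell. The pool held 26 vectors, of which 24 target a gene and 2 are inert, in 14 dual-guide and 12 triple-guide designs. The tags of the Sik combination vectors, on which the results turn, and of the inert vectors, which serve as the reference, are shown here as the file gives them, all in capitals because every base identifies the vector.
Sik1 guide 1/Sik3 guide 1: CCTACTAC
Sik1 guide 1/Sik3 guide 2: GAGATCCA
Sik1 guide 2/Sik3 guide 1: TGTATCGC
Sik1 guide 2/Sik3 guide 2: TTGCCACA
Sik1/Sik2/Sik3: CATGGTAG
Neo1/NT: AATCCGGT
Neo1/NT/Neo2: AATTGCCG

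The barcode is 30 bases long, and all 841396 distinct barcodes fitted one design of 20 random bases in 4 blocks and 10 fixed bases between them. The barcode of the largest tumour of each KTL_Cas9 mouse is shown because all 7 of these tumours carried a Sik vector, 6 of them a combination. Capitals mark the random bases and lower case the fixed ones.
KTL_Cas9 replicate 2, Sik1 guide 2/Sik3 guide 1: gcGTGGTtaGATGAgcGTGACtaTCGCGgc
KTL_Cas9 replicate 3, Sik3 guide 2: gcAACACtaCCACCgcTCCCGtaCCCTGgc
KTL_Cas9 replicate 4, Sik1 guide 1/Sik3 guide 2: gcCCGACtaTCTGCgcCCCGCtaTCGCAgc
KTL_Cas9 replicate 5, Sik1 guide 1/Sik3 guide 2: gcTCCCTtaGCTCCgcTTCGTtaGGTCGgc
KTL_Cas9 replicate 6, Sik1 guide 2/Sik3 guide 2: gcAATGCtaCTTCAgcGATATtaTAGCGgc
KTL_Cas9 replicate 7, Sik1/Sik2/Sik3: gcAGCTGtaCCTTTgcTTTACtaTAGGGgc
KTL_Cas9 replicate 8, Sik1 guide 2/Sik3 guide 1: gcTGAGGtaAGAAGgcTTAGAtaAATTGgc
These tumours held 3625271 (replicate 3) to 13097733 estimated cells (replicate 4) from 107305 to 449950 reads. Their size was 41.6-fold (replicate 2) to 672-fold (replicate 4) the log-normal mean of inert tumours of their mouse, a modelled mean and not the plain average. All but 1 of the 7 barcodes also occurred with the same vector in another mouse, at no more than 65 reads there, and that of replicate 6 did not.

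Barcodes of 500 or more estimated cells were counted as tumours, the cell number being the deposited read count times a per-mouse ratio of cells per read. Named vectors received 936090 to 1505173 reads in a KT mouse and 2181575 to 8547188 in a KTL_Cas9 mouse, and 500 cells took 3.13 to 7.81 reads in KT and 6.16 to 51.7 in KTL_Cas9 mice. KT mice held 1496 to 3693 inert tumours each and KTL_Cas9 mice 61 to 321, so single vectors were measured far less precisely in KTL_Cas9 mice. The SD of ln inert size within a mouse was 0.88 to 0.99 in KT and 1.65 to 2.21 in KTL_Cas9 mice. Of the 17657 KTL_Cas9 tumours, 1473 (8.34%) had a vector and barcode that also occurred in another mouse of the series, and 69 of the 145 KTL_Cas9 tumours of 1000000 cells or more did. The values of the main vector classes are therefore also given without these shared barcodes. Of the 1473, 116 had fewer reads than the same vector and barcode in another mouse. Leaving out shared barcodes thus also takes out tumours whose reads were highest in the KTL_Cas9 mouse, many of the largest among them. KTL_Cas9 replicates 5 and 7 shared 253 and 187 barcodes with one KT_Cas9 mouse (replicate 5), a group not used in this comparison.

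As a class, tumours with guides against several Sik genes were larger than inert tumours in all 7 KTL_Cas9 mice. That comparison has no test at class level, and the class p-values below set KTL_Cas9 against KT mice. Size was the log-normal mean of a vector's tumours, divided by that of inert tumours in the same mouse and given as log2, and a class value is the mean over its vectors. The class of 5 Sik multi-gene vectors stood at -0.03, 0.10, -0.01 and 0.04 in KT replicates 1, 2, 3 and 5. In the 7 KTL_Cas9 mice it ran from 0.45 (replicate 4) through a median of 1.48 to 3.25 (replicate 5). All 7 KTL_Cas9 mice were above all 4 KT mice, and replicates 3 and 4 were the lowest. The class rose by 1.59 ± 0.37 (SE) on the log2 scale, 1.61 ± 0.99 (SD, n = 7) against 0.02 ± 0.06 (SD, n = 4), with a two-sided exact permutation p of 0.0121 and an adjusted p of 0.0485 over 20 class tests. Without barcodes shared between mice it was 1.15 (exact permutation adjusted p = 0.0779). With mice weighted by their expected precision the difference was 1.03, a value with no test. Leaving out one mouse kept the call only for KTL_Cas9 replicate 4 (1.78), 5 (1.32) or 8 (1.48). It was lost without any one of KT replicates 1, 2, 3 and 5 or KTL_Cas9 replicates 2, 3, 6 and 7, where the difference was 1.52 to 1.76.

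**Figure D1:**
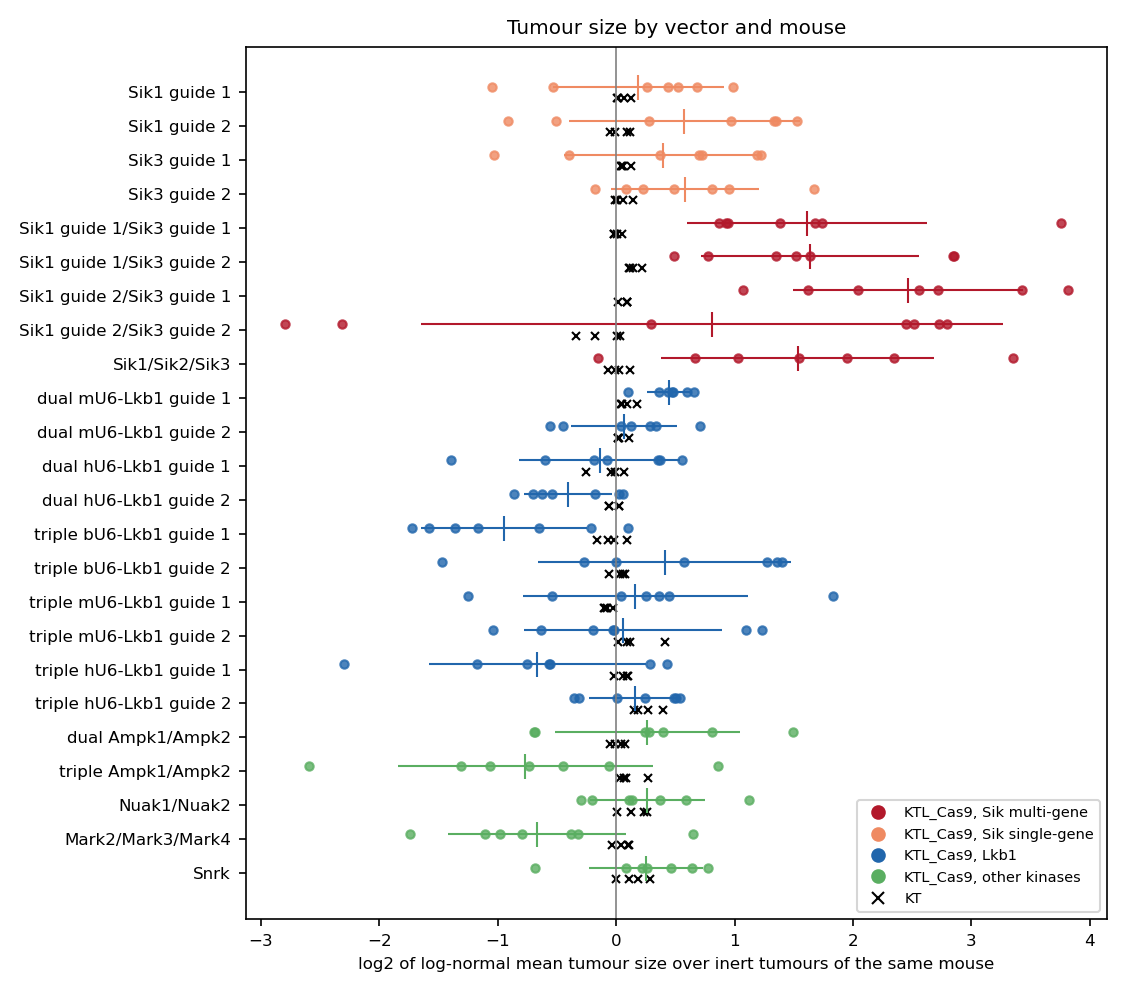
Log-normal mean tumour size of 24 vectors over inert tumours of that mouse (log2 ratio). Dots are the 7 KTL_Cas9 mice with a bar at the mean and a line of 1 SD, crosses are the 4 KT mice; for 3 of the Sik combinations (rows 5 to 7) every dot lies right of every cross.

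Among the combinations, Sik1 guide 2/Sik3 guide 1 had the highest ratio. It was 0.09, 0.09, 0.01 and 0.09 in the KT mice and 1.07 (replicate 3), a median of 2.56 and 3.81 (replicate 5) in KTL_Cas9 mice. The groups did not overlap, and the difference was 2.39 ± 0.37 (SE), 5.25-fold, with 39 to 205 tumours per KTL_Cas9 mouse behind each value (exact permutation p = 0.00606, adjusted p = 0.0727 over 24 vectors).

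Sik1 guide 1/Sik3 guide 1 was 0.00, 0.05, -0.02 and -0.02 in the KT mice and 0.87 (replicate 4), a median of 1.38 and 3.76 (replicate 5) in KTL_Cas9 mice. Replicate 5 stood alone, with the next mouse at 1.74, and all 7 lay above the KT mice. The difference was 1.61 ± 0.38 (SE; exact permutation p = 0.00606, adjusted p = 0.0727). Sik1 guide 1/Sik3 guide 2 was 0.12, 0.22, 0.11 and 0.14 in the KT mice and 0.49 (replicate 6), a median of 1.52 and 2.85 in KTL_Cas9 mice. Again no KTL_Cas9 mouse overlapped the KT mice, and the difference was 1.49 ± 0.35 (SE; exact permutation p = 0.0121, adjusted p = 0.0909).

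The triple vector Sik1/Sik2/Sik3, the one vector that also targets Sik2, was -0.01, 0.12, 0.02 and -0.07 in the KT mice. In KTL_Cas9 mice it ran from -0.15 (replicate 4) through a median of 1.54 to 3.36 (replicate 5). Replicate 4 lay below the KT mice, and the other 6 mice lay above them. The difference was 1.52 ± 0.44 (SE; exact permutation p = 0.0333, adjusted p = 0.16). The Sik2 guide occurs only in this triple-guide design, so its effect cannot be told apart from that of the design. The triple vector minus Sik1 guide 1/Sik3 guide 1, the dual vector with the same Sik1 and Sik3 guides, differed between groups by -0.09 ± 0.23 (SE; exact permutation adjusted p = 0.852 over 7 contrasts), a value within its error. In KTL_Cas9 mice this contrast ran from -1.02 (replicate 4) to 0.97 (replicate 7).

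Sik1 guide 2/Sik3 guide 2 varied widely between mice. It was -0.34, 0.01, -0.18 and 0.03 in the KT mice. In KTL_Cas9 replicates 2, 5, 6 and 8 it was 2.80, 2.45, 2.51 and 2.73, in replicate 7 it was 0.30, and in replicates 3 and 4 it was -2.32 and -2.80. The first 5 of these lay above every KT mouse and the last 2 below every KT mouse, and the difference over all mice was 0.93 ± 0.93 (SE; exact permutation adjusted p = 0.816). This vector was the rarest, with 9 to 90 tumours per KTL_Cas9 mouse. Its number relative to inert tumours was -1.87 and -1.83 (log2) in replicates 3 and 4 and -2.73 to -2.97 in the other 5, and its median tumour held 965 and 1177 cells in replicates 3 and 4 and 2737 to 68762 in the others. The 2 mice of low size thus had relatively more tumours of this vector, with smaller medians. The triple Ampk1/Ampk2 vector likewise was most numerous in replicates 3 and 4, at -0.36 and -0.90, against -1.52 to -2.12 in the other mice, and the cause of neither was tested.

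**Figure D2:**
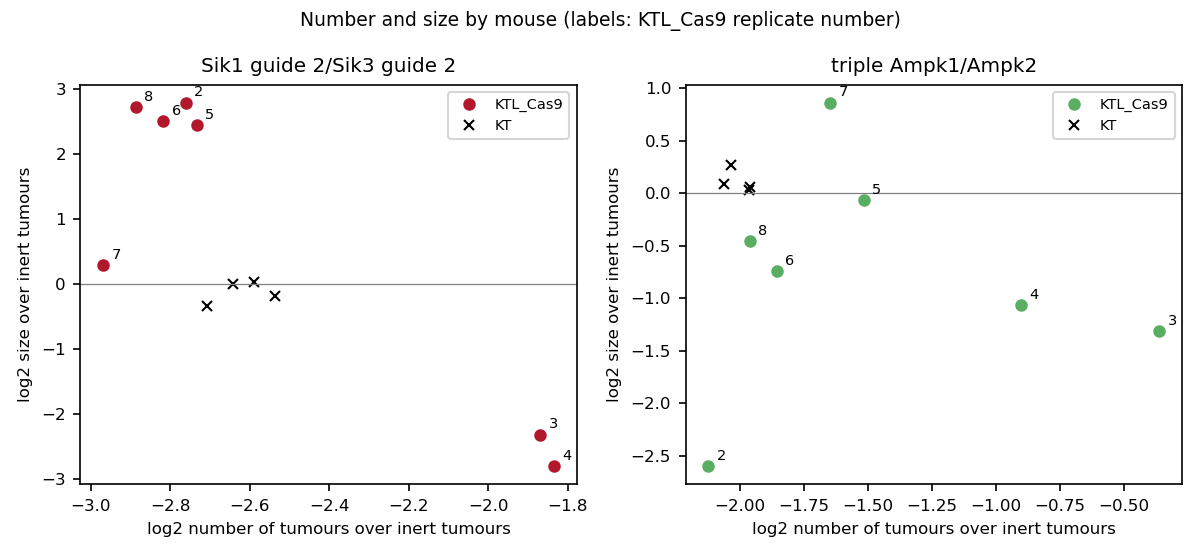
Log2 tumour number (horizontal) against log2 tumour size (vertical), both relative to inert tumours of the same mouse, for 2 vectors, with KTL_Cas9 mice as numbered dots and KT mice as crosses. For Sik1 guide 2/Sik3 guide 2, replicates 3 and 4 sit at -1.87 and -1.83 in number and -2.32 and -2.80 in size, apart from the other 5 mice.

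Counted over all 24 targeting vectors, 0 (0%) were called larger and 0 (0%) smaller at an exact permutation adjusted p under 0.05, where 330 splits allow no p under 0.00303. At an unadjusted p under 0.05 there were 5 larger and 1 smaller. On the same values limma called 3, the non-overlapping combinations named above, with adjusted p of 0.0408 for both vectors with Sik1 guide 1 and 0.00449 for Sik1 guide 2/Sik3 guide 1. An edgeR quasi-likelihood test of reads called those 3 and Sik1/Sik2/Sik3 (adjusted p = 0.0382). Groups did not overlap on the higher side for 3 of 24 vectors (12.5%), all of them among the 5 Sik combinations, and for 0 (0%) on the lower side. The median difference was 1.52 over the 5 Sik combinations, 0.43 over the 4 single-gene Sik vectors, -0.09 over the 10 Lkb1 vectors, 0.10 over the 5 vectors of other kinases and 0.18 over all 24. Within KTL_Cas9 mice alone, an exact sign-flip test against 0 called 0 of 24 after adjustment (lowest adjusted p = 0.0938) and 7 unadjusted, 6 larger and 1 smaller. Of the 20 class tests (5 classes by size, number, burden and share of large tumours), 5 passed, all of Sik vectors and all at an exact permutation adjusted p of 0.0485. These 5 are not independent, since the class of all Sik vectors holds the other Sik classes and the measures use the same tumours. They tied at an unadjusted exact permutation p of 0.0121, and the adjusted value depends on how many tests tie there.

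The ratio of Sik combinations to inert tumours grew along the size distribution up to the 95th percentile. For these percentiles all tumours of a class in a mouse were pooled, so frequent vectors weigh more than rare ones. Relative to the same percentile of inert tumours in the mouse, Sik multi-gene tumours of KTL_Cas9 mice were 1.39-fold at the 25th percentile, 1.63-fold at the median, 2.39-fold at the 75th and 3.09-fold at the 95th. From the median to the 99th percentile (3.03-fold) all 7 mice were above 1-fold, while the mean of the KT mice was at most 1.11-fold at each of these percentiles. The size floor of 500 cells limits ratios at low percentiles. The 25th percentile of inert tumours in KTL_Cas9 mice was only 691 (replicate 3) to 2812 cells (replicate 7). In replicate 4 it was 893 cells for Sik multi-gene and inert tumours alike. KT sizes near the floor rested on few reads, and every class had the inert median in all 4 KT mice. How far the floor and low reads shaped the climb, or the flat KT values, was not tested. As a mean over vectors, and not pooled, the difference between genotypes was smaller when size was taken as the median (0.74 on the log2 scale, exact permutation adjusted p = 0.173). It did not pass on the 90th (1.07) or 95th percentile (1.42, exact permutation adjusted p = 0.0606) either. Single-gene Sik tumours were 1.002-fold at the median and 1.53-fold at the 95th percentile, the latter above 1-fold in 7 of 7 mice. Lkb1 tumours stayed between 0.94- and 1.15-fold at all 6 percentiles. Without shared barcodes Sik multi-gene tumours were 1.28-fold at the 25th percentile, 1.55-fold at the median, 1.94-fold at the 75th, 2.47-fold at the 95th and 2.43-fold at the 99th. From the median up all 7 mice again were above 1-fold. Lkb1 tumours then lay between 0.98- and 1.19-fold, and single-gene Sik tumours were 1.08-fold at the median and 1.57-fold at the 95th percentile.

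**Figure D3:**
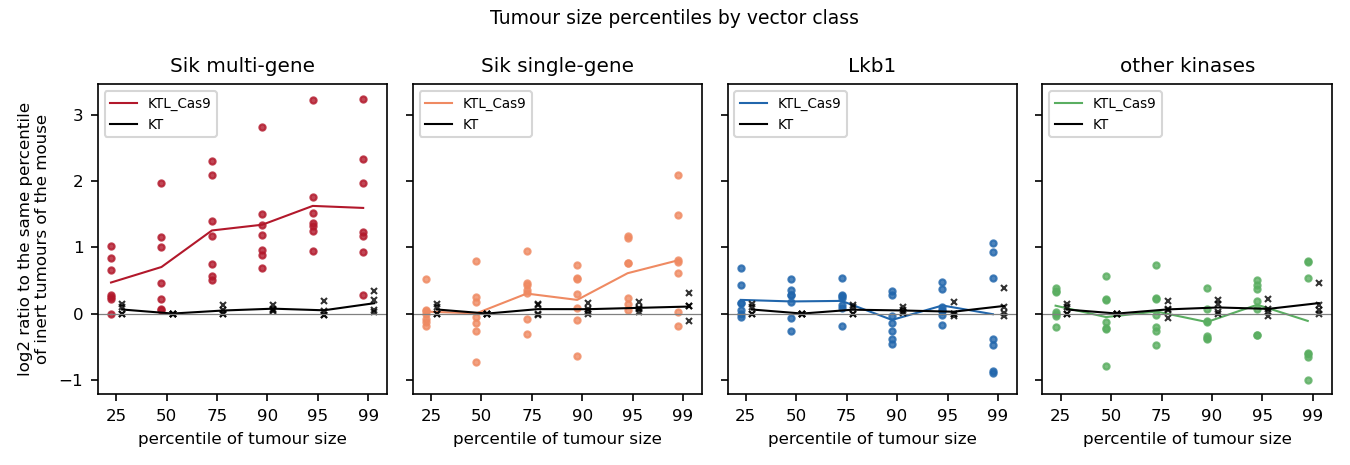
Log2 ratio of the 25th to 99th percentile of tumour size to the same percentile of inert tumours of the mouse, by vector class; dots are KTL_Cas9 mice and crosses KT mice, with lines through the means. The Sik multi-gene mean climbs from 0.47 at the 25th to 1.63 at the 95th percentile, and the Lkb1 mean stays between -0.10 and 0.21. At the 25th percentile many sizes lie near the size floor, which limits the ratio there. Tumours of a class were pooled within a mouse.

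The Sik combinations were over-represented among large tumours more than among all tumours. Relative to inert tumours and to each class's share of tumours in KT mice, Sik multi-gene tumours of 500 cells or more were 1.03-fold as frequent in KTL_Cas9 mice, above 1-fold in 4 of 7. At 50000 cells or more they were 1.78-fold as frequent, in 7 of 7 mice, and at 500000 cells or more 2.83-fold, in 5 of the 5 mice where the ratio could be formed. The value at 500000 cells rests on 16 inert tumours, with 1 in each of replicates 2 and 3. The KT share was that of tumours of 500 cells or more at every threshold. The corresponding Lkb1 values were 1.11-fold, 1.21-fold and 0.80-fold, the last over 4 mice. Without shared barcodes the Sik multi-gene values were 0.999-fold at 500 cells, 1.64-fold at 50000 (7 of 7 mice) and 2.77-fold at 500000 (5 of 5 mice, from 12 inert tumours). Those of Lkb1 were 1.11-fold, 1.25-fold and 0.85-fold.

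At 100000 cells or more, the share of Sik multi-gene tumours exceeded the inert share of the same mouse by -0.03, 0.05, -0.00 and 0.08 percentage points in the KT mice. KT mice held only 149 tumours of this size among 154523, 10 to 67 per mouse, which keeps their excess near 0 for any vector. The comparison with KT therefore shows little more than an excess above 0 in KTL_Cas9 mice. In KTL_Cas9 mice the excess ran from 2.67 (replicate 4) through a median of 8.99 to 20.001 points (replicate 5), with no overlap. The share rose by 10.3 ± 2.46 points (SE; exact permutation p = 0.0121, adjusted p = 0.0485), and 8.03 points without shared barcodes (adjusted p = 0.0779). Leaving out one mouse kept this call only without KTL_Cas9 replicate 4 (11.6), 5 (8.71) or 8 (9.21), and lost it without each of the other 8 mice (9.91 to 11.3).

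Tumours of 1000000 cells or more were nearly all in KTL_Cas9 mice, 145 of 17657 against 2 of 154523 in KT mice. Sik multi-gene vectors supplied 75 of the 145 from 2963 tumours (2.53%), in all 7 mice. Of these, 29 carried Sik1 guide 2/Sik3 guide 1, 21 Sik1 guide 1/Sik3 guide 1, 15 Sik1 guide 1/Sik3 guide 2, 7 Sik1/Sik2/Sik3 and 3 Sik1 guide 2/Sik3 guide 2. The share was 0.764% of single-gene Sik tumours (21 of 2747), 0.405% of Lkb1 tumours (29 of 7169), 0.420% of tumours of other kinases (15 of 3572) and 0.415% of inert tumours (5 of 1206). These differences were not tested. Without shared barcodes 76 such tumours were left in KTL_Cas9 mice, and Sik multi-gene vectors supplied 37 of them, from 2701 tumours (1.37%) and in 5 of 7 mice. The share was then 0.581% of single-gene Sik tumours (15 of 2581), 0.215% of Lkb1 tumours (14 of 6511), 0.246% of other kinases (8 of 3250) and 0.175% of inert tumours (2 of 1141). In KT mice 0 of 28655 Sik multi-gene tumours, 0 of 11443 inert tumours and 0 of 27066 tumours of other kinases reached this size. With 2 of 154523 KT tumours of any class this large, the 0 says little about Sik vectors. KTL_Cas9 replicate 4 alone held 64 of the 145.

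Sik combinations also took up a larger part of the tumour cells of a KTL_Cas9 mouse. They made up 19.1, 18.4, 18.3 and 19.4% of tumour cells in the KT mice and from 24.0% (replicate 3) through a median of 35.4% to 53.0% (replicate 5) in KTL_Cas9 mice. Their share of tumours was 18.6 ± 0.23% (SD, n = 4) in KT and 17.1 ± 0.93% (SD, n = 7) in KTL_Cas9 mice, so the difference was one of cells. Shares of cells and the 10 largest tumours were measures added after the values were seen. They were adjusted together, apart from the class tests above. The share of cells rose by 17.7 ± 3.44 points (SE; exact permutation p = 0.00606, adjusted p = 0.0121 over 10 tests). This call held without each mouse in turn (14.9 to 19.7). Without shared barcodes the rise was 10.3 ± 2.02 points (SE; exact permutation adjusted p = 0.0303). All 9 Sik vectors together held 52.9 ± 7.08% (SD, n = 7) of cells against 34.2 ± 1.03% (SD, n = 4; exact permutation adjusted p = 0.00758), a rise that was 12.5 points without shared barcodes (adjusted p = 0.0303).

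Shares sum to 100% within a mouse, so a higher share of one class lowers the others. Inert tumours held 7.16 ± 0.25% (SD, n = 4) of cells in KT and 4.82 ± 1.46% (SD, n = 7) in KTL_Cas9 mice, a fall that was not tested. Lkb1 vectors fell from 40.9 ± 0.73% (SD, n = 4) of cells in KT to 28.4 ± 4.63% (SD, n = 7) in KTL_Cas9 mice (exact permutation adjusted p = 0.00758). Without shared barcodes the difference was -8.71 points (exact permutation adjusted p = 0.0303). Other kinases fell from 17.8 ± 0.93% (SD, n = 4) to 13.9 ± 2.86% (SD, n = 7; exact permutation adjusted p = 0.0433), a difference of -3.85 points that was -2.02 without shared barcodes (adjusted p = 0.265). That call was also lost without any one of KT replicates 1, 2 and 3 or KTL_Cas9 replicates 2, 5, 6 and 8 (-4.01 to -3.12). Single-gene Sik vectors held 16.4 ± 2.77% (SD, n = 7) against 15.4 ± 0.61% (SD, n = 4; exact permutation adjusted p = 0.532).

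Of the 10 largest tumours of each mouse, Sik combinations supplied 2, 2, 1 and 2 in the KT mice, 7 of 40. In KTL_Cas9 replicates 2 to 8 they supplied 7, 2, 6, 9, 9, 9 and 3, 45 of 70. The ranges touched at 2, in replicate 3. This count, too, was added after the values were seen. The mean rose by 4.68 ± 1.14 tumours (SE; exact permutation p = 0.0273, adjusted p = 0.0433), and was 3.32 without shared barcodes (adjusted p = 0.096). The call was lost without any one KT mouse or without KTL_Cas9 replicate 2 (4.43 to 4.76). Lkb1 vectors supplied 17 of 40 in KT and 6 of 70 in KTL_Cas9 mice, a mean that fell by 3.39 per mouse (exact permutation adjusted p = 0.00758). Without shared barcodes that difference was -2.61 (exact permutation adjusted p = 0.0303). The places are fixed at 10 per mouse, so a rise of one class lowers the others, and inert vectors supplied 5 of 40 in KT and 2 of 70 in KTL_Cas9 mice.

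**Figure D4:**
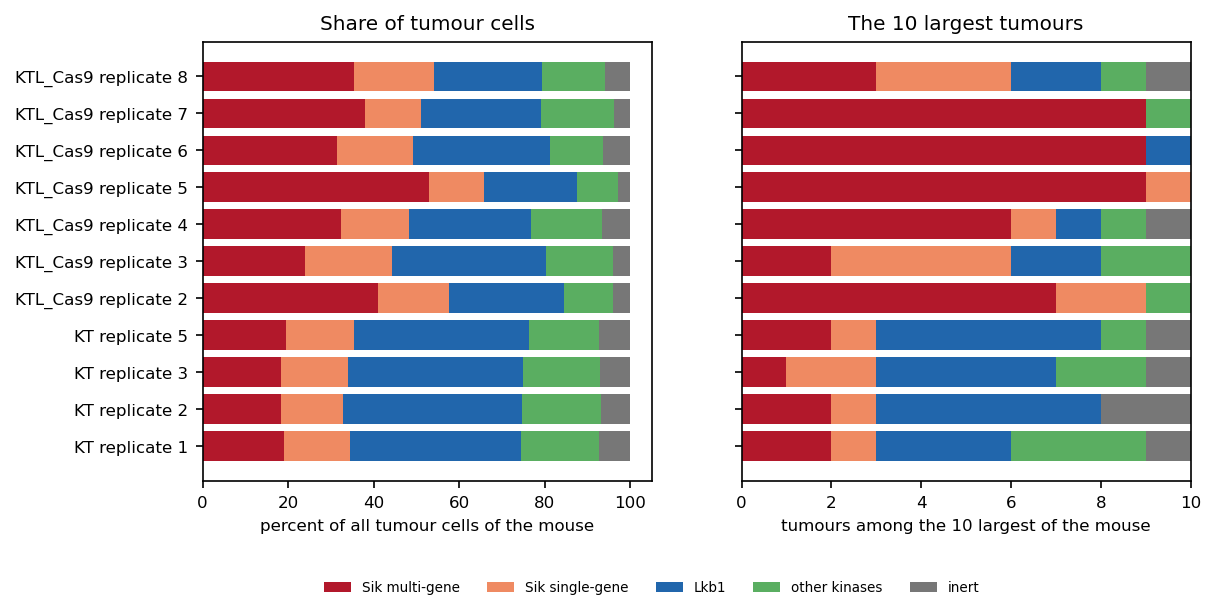
Share of tumour cells (percent, left) and number among the 10 largest tumours (right) for each mouse, stacked by vector class. Sik multi-gene vectors fill 24.0 to 53.0% of cells in the 7 KTL_Cas9 mice and 18.3 to 19.4% in the 4 KT mice.

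Single guides against Sik1 or Sik3, each beside a non-targeting guide, gave smaller ratios. As a class their size differed between genotypes by 0.38 ± 0.21 (SE; exact permutation adjusted p = 0.369), at 0.43 ± 0.54 (SD, n = 7) in KTL_Cas9 mice, above 0 in 5 of 7. Per vector the KTL_Cas9 means were 0.58 ± 0.62 (SD, n = 7) for Sik3 guide 2, 0.58 ± 0.98 for Sik1 guide 2, 0.40 ± 0.84 for Sik3 guide 1 and 0.19 ± 0.72 for Sik1 guide 1, and none passed. The log2 ratio of a dual vector less those of its single-gene vectors differed between genotypes by 0.84 ± 0.33 (SE) (exact permutation p = 0.0606, adjusted p = 0.212 over 7 contrasts). Dual vectors with Sik3 guide 2 less those with guide 1 differed between genotypes by -0.79 ± 0.47 (SE; adjusted p = 0.445 by exact permutation), and the same contrast of the Sik1 guides by 0.11 ± 0.49 (SE; adjusted p = 0.891 by exact permutation).

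Cell burden is the log2 ratio of all cells in a vector's tumours to those in inert tumours, so it depends on number and size. Burden of Sik combinations was -1.26, -1.08, -1.17 and -1.13 in the KT mice and -1.06 (replicate 4), a median of -0.13 and 1.497 (replicate 5) in KTL_Cas9 mice. Groups did not overlap, by a narrow gap at replicate 4. Burden rose by 1.31 ± 0.31 for the combinations, by 0.60 ± 0.13 for single-gene Sik vectors and by 0.998 ± 0.22 for all Sik vectors (SE; each exact permutation p = 0.0121, adjusted p = 0.0485). Without shared barcodes these were 0.82, 0.51 and 0.69, and none passed (exact permutation adjusted p = 0.0779 to 0.0833). All 3 calls held without KTL_Cas9 replicate 4 or 8, and those of single-gene and all Sik vectors also without replicate 5. Each was lost without any one KT mouse or KTL_Cas9 replicate 2, 3, 6 or 7, and that of the combinations also without replicate 5 (1.09).

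The highest burden difference of a vector was that of Sik1 guide 2/Sik3 guide 1, 1.85 ± 0.27 (SE; exact permutation p = 0.00303, the smallest possible, adjusted p = 0.0727). Burdens of 0 of 24 vectors (0%) were called higher and of 0 (0%) lower by exact permutation, with 5 higher and 0 lower at an unadjusted p under 0.05. Groups did not overlap for 3 of 24 (12.5%), the same Sik combinations as by size. Here limma called 1 vector, Sik1 guide 2/Sik3 guide 1, and edgeR 5, the 4 it called by size and Sik3 guide 2.

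Vectors against Lkb1 itself, whose target gene is floxed in these mice, had no called change in size, beside their lower share of cells and of the 10 largest tumours given above. Such shares also fall when another class rises. Relative to inert tumours, Lkb1 cell burden differed by 0.01 ± 0.17 (SE; exact permutation adjusted p = 0.967). In size the class of 10 vectors stood at -0.09 ± 0.23 (SD, n = 7) in KTL_Cas9 and 0.04 ± 0.05 (SD, n = 4) in KT mice, a difference of -0.13 ± 0.09 (SE; exact permutation adjusted p = 0.517). Class values per KTL_Cas9 mouse ran from -0.53 (replicate 2) through -0.04 to 0.11 (replicate 5), across the KT range of -0.00 to 0.12. Differences of single vectors lay between -0.91 and 0.38, with 4 of 10 above 0. At the low end, the triple vector with Lkb1 guide 1 behind the bU6 promoter was -0.16, 0.09, -0.02 and -0.07 in the KT mice and -1.73 (replicate 2), a median of -1.17 and 0.10 (replicate 5) in KTL_Cas9 mice. Of the 7 KTL_Cas9 mice, 6 were below every KT mouse, and the difference was -0.91 ± 0.27 (SE; exact permutation p = 0.0424, adjusted p = 0.17). Without shared barcodes it was -0.89 and passed the test (exact permutation adjusted p = 0.0485).

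The dual vector with Lkb1 guide 1 behind the mU6 promoter was the most frequent of the pool and, among KTL_Cas9 mice, the one with the lowest SD of size (0.18, n = 7). It stood at 0.09, 0.18, 0.04 and 0.05 in the KT mice and 0.10 (replicate 7), a median of 0.47 and 0.66 (replicate 4) in KTL_Cas9 mice. Of the 7 KTL_Cas9 mice, 6 lay above every KT mouse. Its difference was 0.35 ± 0.08 (SE; exact permutation p = 0.0152, adjusted p = 0.0909), from 81 to 384 tumours per KTL_Cas9 mouse. The same guide thus had values on either side of 0 in different vectors. Over all Lkb1 vectors, guide 1 minus guide 2 differed between genotypes by -0.19 ± 0.16 (SE; exact permutation adjusted p = 0.564). The Sik combinations exceeded the Lkb1 vectors of the same mouse by 1.72 ± 0.37 (SE) more in KTL_Cas9 than in KT mice, without overlap (exact permutation p = 0.00909, adjusted p = 0.0636 over 7 contrasts).

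The other AMPK-related kinases had no called change in size. Their class differed by -0.23 ± 0.20 (SE; exact permutation adjusted p = 0.582). Snrk, which encodes the SNF-related kinase, differed by 0.11 ± 0.19 (SE) and Nuak1/Nuak2 by 0.10 ± 0.19 (SE). Mark2/Mark3/Mark4, a vector against 3 microtubule affinity-regulating kinases, was 0.04, 0.11, 0.10 and -0.03 in the KT mice. In KTL_Cas9 mice it ran from -1.74 (replicate 2) through a median of -0.79 to 0.65 (replicate 8). In all, 6 of 7 mice were below every KT mouse, and the difference was -0.72 ± 0.29 (SE; exact permutation p = 0.106, adjusted p = 0.324).

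For AMPK, the energy-sensing kinase, the dual and the triple vector had values of opposite sign, 0.25 ± 0.30 and -0.88 ± 0.41 (SE). The triple vector was 0.03, 0.27, 0.06 and 0.08 in the KT mice and -2.59 (replicate 2), a median of -0.74 and 0.86 (replicate 7) in KTL_Cas9 mice, 6 of 7 of them below every KT mouse. Its difference from the dual vector within mice was -1.13 ± 0.48 (SE) lower in KTL_Cas9 mice and did not pass (exact permutation adjusted p = 0.255 over 7 contrasts).

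For the Sik combinations the difference in tumour number, relative to inert tumours, was smaller than that in size. They differed by 0.04 ± 0.09 (SE; exact permutation adjusted p = 0.828), single-gene Sik vectors by 0.18 ± 0.10, Lkb1 vectors by 0.20 ± 0.09 (adjusted p = 0.276) and other kinases by 0.40 ± 0.11 (p = 0.0242, adjusted p = 0.0606). The values of 22 of 24 vectors were above 0, with a median of 0.19, beside a share of inert tumours of 6.67 ± 1.12% (SD, n = 7) in KTL_Cas9 and 7.41 ± 0.19% (SD, n = 4) in KT mice. By exact permutation 0 of 24 (0%) were called higher and 0 (0%) lower, with 5 higher and 0 lower unadjusted. For 3 of 24 (12.5%) the groups did not overlap. They were Nuak1/Nuak2 (0.61 ± 0.14 SE), Mark2/Mark3/Mark4 (0.37 ± 0.10) and the triple vector with Lkb1 guide 2 behind hU6 (0.36 ± 0.08).

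Nuak1/Nuak2 tumours, counted against inert tumours, were at -1.48, -1.61, -1.63 and -1.76 (log2) in the KT mice. In KTL_Cas9 mice the values ran from -1.46 (replicate 6) through a median of -0.90 to -0.50 (replicate 2). The gap between the groups was narrow at replicate 6. Its exact permutation p was 0.0121, and limma called it as the one vector of 24 (adjusted p = 0.0357).

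Because inert tumours were few in KTL_Cas9 mice and Lkb1 was floxed there, the inert and Lkb1 vectors were also pooled as a reference, a choice made after the values were seen. This raised the reference to between 417 and 2123 tumours per KTL_Cas9 mouse. It assumes that Lkb1 vectors do nothing in these mice. On it the Sik combinations rose in size by 1.57 ± 0.36 (SE; exact permutation adjusted p = 0.0277 over 16 tests) and all Sik vectors by 1.04 ± 0.26 (adjusted p = 0.0303 by exact permutation), and 2 vectors were called, Sik1 guide 2/Sik3 guide 1 and, with the other Sik1 guide, Sik1 guide 1/Sik3 guide 1 (each adjusted p = 0.0424 over 14 vectors, exact permutation). Tumours of other kinases rose in number by 0.27 ± 0.07 (SE; adjusted p = 0.0277 by exact permutation). Sik combinations were lower in number by this measure, at -0.09 ± 0.02 (SE; exact permutation adjusted p = 0.0377), against 0.04 with inert tumours alone.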

How the data were processed

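The deposited table gives, per the file headers, for each mouse, vector and barcode a read count, an estimated number of cells and the ratio between them, in cells per read. The authors' counts are whole and not normalised, with a lowest value of 2, and the deposited ratio is the same for all rows of a mouse. The sources used here name no aligner, read filter or genome build. Repeated whole lines (105870 of 1019578, all of KT replicate 2) and lines with no vector name (48400, 1.76% of reads) were dropped, and 2 identifiers that are not vectors were left out.

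Mice were numbered in record order, and a vector needed 5 tumours in a mouse. Genotypes were tested by exact permutation of the mice (two-sided) and vectors within KTL_Cas9 mice by exact sign-flip, with Benjamini-Hochberg adjustment at 0.05 within each family named. KTL_Cas9 values spread far more than KT values, and the permutation takes the spread as equal. Litters and cages are not given, so p-values measure the spread between these mice. Reads carry no molecular identifiers, so depth covers counting error only. The checks with limma 3.58.1 and edgeR 4.0.16 ran in R 4.3.3, the rest in Python 3.11.15 with numpy 2.4.6 and pandas 2.3.3. Of the measures, only size was run on simulated data, through the permutation test. The simulated sizes were log-normal and far above the size floor, with equal reads and no shared barcodes, unlike the real tumours.

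All 24 targeting vectors were open to naming, being under 30. The members and vector lists were chosen with earlier results of these data known, and shares of cells, the 10 largest tumours, the pooled reference, 1 treatment of shared barcodes, and the percentiles and counts of large tumours without shared barcodes were added after the values were seen. Of 12 target genes 10 matched the RefSeq mouse table (Lkb1 as Stk11), and Ampk1 and Ampk2 are named as in the file. Alternatives covered the size summary, size floor, read minimum, shared barcodes, reference, tool, tumours per vector and each mouse left out. One further allele that both groups share is not reported here.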

Additional observations from a re-analysis of the deposited data

Results flagged for a closer look

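Of 198 groups of 4 or more mice examined, 4 had one mouse far from the rest by Dixon's test, which chance alone flags in about 1 in 20 groups. The log2 size of Sik1 guide 1/Sik3 guide 1 was 3.76 in KTL_Cas9 replicate 5, with the next mouse at 1.74. The log2 burden of Sik1 guide 1 was -1.66 in KTL_Cas9 replicate 3, with the next at -0.64. In KT mice, whose values lie close together, the log2 size of Sik1 guide 2/Sik3 guide 1 was 0.0139 in replicate 3, with the next at 0.09, and that of the dual mU6-Lkb1 guide 2 vector was 0.11 (0.105) in replicate 1, with the next at 0.03. No explanation of these values was tested.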

How the results depend on the processing

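No paired analysis was possible because the labels give no replicate numbers and KTL_Cas9 and KT mice are different animals. The calls of Sik classes by size, burden and share of large tumours lay just under the threshold and were lost under many settings, while no called value turned its direction. The number of Sik combinations, not called with inert tumours alone, turned from 0.04 to -0.0903 with inert and Lkb1 vectors as the reference and was called there (exact permutation adjusted p = 0.0377). The causes were not tested. For size (log2), the Sik combinations no longer passed with the median (0.74), the 90th (1.07) or 95th percentile (1.42), the floor 3 times (1.49) or 10 times higher (1.35), tumours of 10 or more reads (1.61), shared barcodes left out (1.15) or kept in 1 mouse (1.58), without inert Neo1/NT (1.55), which leaves 21 to 103 inert tumours per KTL_Cas9 mouse, or with 10 or more tumours of a vector (1.56).

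Burdens of combinations, single-gene and all Sik vectors no longer passed with the floor 3 times higher (1.31, 0.59 and 0.99), 10 times higher (1.43, 0.60 and 1.06), 10 or more reads (1.31, 0.59 and 0.99), shared barcodes left out (0.82, 0.51 and 0.69) or kept in 1 mouse (1.31, 0.60 and 0.996), and without Neo1/NT (0.98, 0.26 and 0.66). The excess share of large tumours of Sik combinations did likewise (13.5, 15.6, 10.4, 8.03, 10.3 and 8.92 points), and was 2.07 points at 1000000 cells (adjusted p = 0.0519). Without shared barcodes the share of cells of other kinases (-2.02) and the Sik combinations among the 10 largest (3.32) did not pass.

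Other results passed where the main setting did not. These were the size of all Sik vectors on the 95th percentile (0.97), with the floor 3 times lower (0.96), without Neo1/NT/Neo2 (1.09) and with inert and Lkb1 vectors as the reference (1.04), and their large-tumour share in the last 3 (4.02, 7.24 and 6.61 points). With the floor 3 times lower, so did the number of Lkb1 (0.29) and other kinase vectors (0.54; 0.53 without Neo1/NT/Neo2, 0.27 with the pooled reference) and the contrasts of dual vectors with the sum of singles (0.89), Sik3 guide 2 with guide 1 (-1.44) and Sik combinations with Lkb1 (1.62; 1.20 without shared barcodes).

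Vectors called larger numbered 3 on the 95th percentile, 2 at the floor 3 or 10 times higher, 3 at 10 or more reads, 2 (and 1 smaller) without shared barcodes, 3 without Neo1/NT/Neo2, 2 with the pooled reference, 4 in edgeR and 3 in limma, against 0. Vectors called higher by number were 6 with the lower floor, 2 without shared barcodes, 1 with the pooled reference and 1 in limma, and by burden 3 without shared barcodes, 2 with the pooled reference, 5 in edgeR and 1 in limma. The 3 by burden without shared barcodes were Sik1 guide 1/Sik3 guide 1, Sik1 guide 2/Sik3 guide 1 and Nuak1/Nuak2.

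With one mouse left out, Sik combinations ranged from 1.32 to 1.78 in size, 1.09 to 1.52 in burden, 8.71 to 11.6 points in share of large tumours and 4.25 to 5.42 among the 10 largest. Single-gene burden ranged from 0.53 to 0.69. All Sik vectors ranged from 0.85 to 1.21 in size, 0.84 to 1.15 in burden and 5.64 to 7.76 points in share of large tumours. Other kinases ranged from 0.33 to 0.48 in number and -4.37 to -3.12 points in share of cells, and vectors called by burden from 0 to 3. Weighting mice by expected precision gave 1.03 for the size of Sik combinations and was not run for counts of vectors.

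The 61 to 321 inert tumours per KTL_Cas9 mouse limit precision. An estimate from counting and size spread alone gives an expected SD between mice of 0.77 to 1.56 (log2) for Sik combinations there and 0.05 to 0.08 in KT mice. The observed SD of these combinations in KTL_Cas9 mice was 0.92 to 2.46. For other vectors the estimate exceeded the observed SD, as for dual mU6-Lkb1 guide 1 (0.58 against 0.18) and Snrk (0.85 against 0.48), so it can overstate the error.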

Other observations

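In KT mice, which carry no Cas9, the vectors differed little from inert tumours in size. Over 4 mice the log2 size ratios ran from -0.34 to 0.22 for the Sik combinations, from -0.05 to 0.14 for single-gene Sik vectors, from -0.25 to 0.41 for Lkb1 vectors and from -0.05 to 0.28 for other kinases. Values above 0 numbered 14 of 20, 13 of 16, 26 of 40 and 16 of 20 in these classes. The highest KT mean was that of the triple vector with Lkb1 guide 2 behind hU6, 0.25 ± 0.11 (SD, n = 4), above 0 in 4 of 4 mice. The 2 KT tumours of 1000000 cells or more carried this vector and Sik1 guide 1.

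Within KTL_Cas9 mice the inert vectors differed between themselves as well. Relative to both together, the log2 size of Neo1/NT ran from -0.35 (replicate 7) to 0.21 (replicate 6), and that of Neo1/NT/Neo2 from -0.58 (replicate 8) to 1.07 (replicate 7), against -0.05 to 0.13 for either in KT mice.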
